A study of Mus musculus with 12 samples.

Results

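Chondroitin sulphate proteoglycans, tenascins and link proteins build the perineuronal and glial matrix of the brain, and 10 of their genes were followed here through the mouse striatum after ischemic stroke. They were the lecticans aggrecan (Acan), brevican (Bcan), neurocan (Ncan) and versican (Vcan), tenascin-C (Tnc) and tenascin-R (Tnr), the link proteins Hapln1 and Hapln4, and the membrane proteoglycans Ptprz1 and Cspg5. The genes were taken by symbol from the 54532 Ensembl gene IDs of the count files, and all 10 passed the filter on low counts that left 19822 genes for testing.

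In this matrix, lectican core proteins carry chondroitin sulphate chains and bind the long polysaccharide hyaluronan with their N-terminal end. Link proteins of the Hapln family lock that bond, and tenascins cross-link lecticans at their C-terminal end. The lattice condenses into perineuronal nets around some neurons, above all fast-spiking parvalbumin interneurons, and after injury reactive glia lay down proteoglycans and tenascin-C in the scar, where they are known to restrict the growth of axons.

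The data were polyA+ RNA sequencing libraries from striatum taken 7 or 14 days after ischemic stroke. At each time there were wild-type mice (WT) and 2 lines made with CRISPR-Cas9 and labelled as lacking Cgas (cGAS-KO) or Sting (STING-KO). cGAS is a sensor of cytosolic DNA, and STING, encoded by Tmem173, is the adaptor downstream of it. All 6 groups of time and genotype were C57BL/6J, all had the stroke, and each held 2 libraries, 12 in all, with no uninjured group. The labels give no age or sex, and do not say whether the libraries of a group came from separate mice, so p-values rest on library-to-library spread alone, which may be partly technical.

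Library totals ran from 15956242 to 22126213 counts. Levels are CPM, counts scaled to a common library total and corrected by TMM factors, on which 3 counts in a library are 0.133 to 0.195 CPM. The transcripts of the targeted genes went against the labels at 7 days: the mean of Cgas was 3.11 CPM for 7-day WT and 5.60 CPM for 7-day cGAS-KO, and that of Tmem173 was 2.76 CPM for 7-day WT and 22.4 CPM for 7-day STING-KO. At 14 days they were lower in their labelled knockouts, Cgas at 10.1 CPM for WT and 5.12 CPM for cGAS-KO, and Tmem173 at 21.5 CPM for WT and 3.80 CPM for STING-KO. The mean of Cgas was 4.04 CPM in 14-day STING-KO as well, so its lower level was not particular to its own label. Counts per gene do not show which exons were read, and the genotypes are used below as labels. The labelled tissue was checked against 9 markers of striatal projection neurons. None was at 0 in every library of a group, but their summed level was 129 to 449 CPM over the 7-day libraries and 738 to 6142 CPM over the 14-day libraries, highest in 14-day STING-KO. Markers of cortical and hippocampal pyramidal neurons summed to 1652 to 1962 CPM in 7-day WT, against 19.0 to 586 CPM in the other groups. The 7-day WT libraries thus stood apart in the pyramidal markers and the 14-day STING-KO libraries in the striatal markers. Comparisons that use neither group are given beside those that do. The striatal markers also differed between the times. From 7 to 14 days 8 of the 9 were higher in cGAS-KO, and all 9 in WT and in STING-KO (edgeR adjusted p below 0.05). These stand beside 13.4%, 24.1% and 27.4% of all genes. Whether tissue content has a part in the changes with time was not tested.

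To show the sequence before the starts of the genes that were higher in both labelled knockouts at 7 days, the 250 bases upstream of the RefSeq start (GRCm38.p6, which is mm10) are printed for tenascin-C and versican, and for tenascin-R, a tenascin that passed the test in no comparison. RefSeq windows were matched for 8 of the 10 genes, all but Hapln4 and Cspg5. Each is written 5′ to 3′ on the gene's own strand, ends at the base before the start, and holds no annotated exon. Capitals mark matches, on either strand, to a TATA box (TATANA), an AP-1 site (TGANTCA), a GC box (GGGCGG) or a CCAAT box (CCAAT), and no match overlaps another in these windows.
Tnc, chr4:64047016-64047265, minus strand: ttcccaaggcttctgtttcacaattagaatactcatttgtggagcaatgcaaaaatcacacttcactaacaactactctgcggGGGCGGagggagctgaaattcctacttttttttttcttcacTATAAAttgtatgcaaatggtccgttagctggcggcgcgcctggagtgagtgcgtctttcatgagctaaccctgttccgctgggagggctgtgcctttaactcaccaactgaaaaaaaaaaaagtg
Vcan, chr13:89742513-89742762, minus strand: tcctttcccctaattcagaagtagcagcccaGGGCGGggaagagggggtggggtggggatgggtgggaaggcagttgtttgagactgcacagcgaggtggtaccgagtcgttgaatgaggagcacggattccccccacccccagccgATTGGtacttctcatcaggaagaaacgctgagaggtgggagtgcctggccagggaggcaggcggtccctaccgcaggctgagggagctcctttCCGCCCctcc
Tnr, chr1:159523519-159523768, plus strand: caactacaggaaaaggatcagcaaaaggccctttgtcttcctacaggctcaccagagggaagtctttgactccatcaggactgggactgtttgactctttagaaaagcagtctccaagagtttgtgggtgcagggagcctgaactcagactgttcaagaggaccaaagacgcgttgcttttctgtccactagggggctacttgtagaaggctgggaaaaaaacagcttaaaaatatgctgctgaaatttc

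The tenascin-C window held a TATA box 126 to 121 bases and a GC box 167 to 162 bases upstream of the printed start. A second RefSeq start of Tnc, at base 64046936, has a window that holds 79 annotated exon bases and is not printed. In it TATA boxes lay at 205 to 200 and at 29 to 24 bases and a GC box at 246 to 241 bases upstream. The versican window held GC boxes at 219 to 214 and at 10 to 5 bases, the nearer on the opposite strand, and a CCAAT box on the opposite strand at 103 to 99 bases. The tenascin-R window held no match, which says only that these letters are not in it. The printed windows of tenascin-C and versican thus shared the GC box and not the TATA or CCAAT box. Over 32851 RefSeq windows of the same length, 22.6% held the TATA box, 6.75% the AP-1 site, 32.7% the GC box and 33.8% the CCAAT box. GC content was 44.8% for tenascin-C, 62.4% for versican and 46.8% for tenascin-R, against a median of 52.4% over all windows.

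Between genes, levels were compared as median CPM per kb of exon over the 12 libraries. Brevican was the most abundant at 86.0 CPM per kb, followed by neurocan at 27.6, Cspg5 at 23.1, Ptprz1 at 18.4 and tenascin-R at 13.8. Hapln4 had 6.28, versican 4.59, Hapln1 4.18, tenascin-C 1.26 and aggrecan, the classical core protein of perineuronal nets, 0.419 CPM per kb. With the length of the longest coding transcript instead, a choice made after the data had been seen, Ptprz1 moved from rank 4 to rank 2 and neurocan from rank 2 to rank 4, and the other 8 kept their rank. The most variable genes across groups were the less abundant ones: the highest group mean was 12.8 times the lowest for Hapln4, 8.84 times for Tnc, 4.80 times for Vcan and 3.86 times for Hapln1. It was 2.86 times for Acan, 2.04 times for Ptprz1, 2.01 times for Bcan, 1.67 times for Cspg5, 1.45 times for Tnr and 1.38 times for Ncan.

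**Figure D1:**
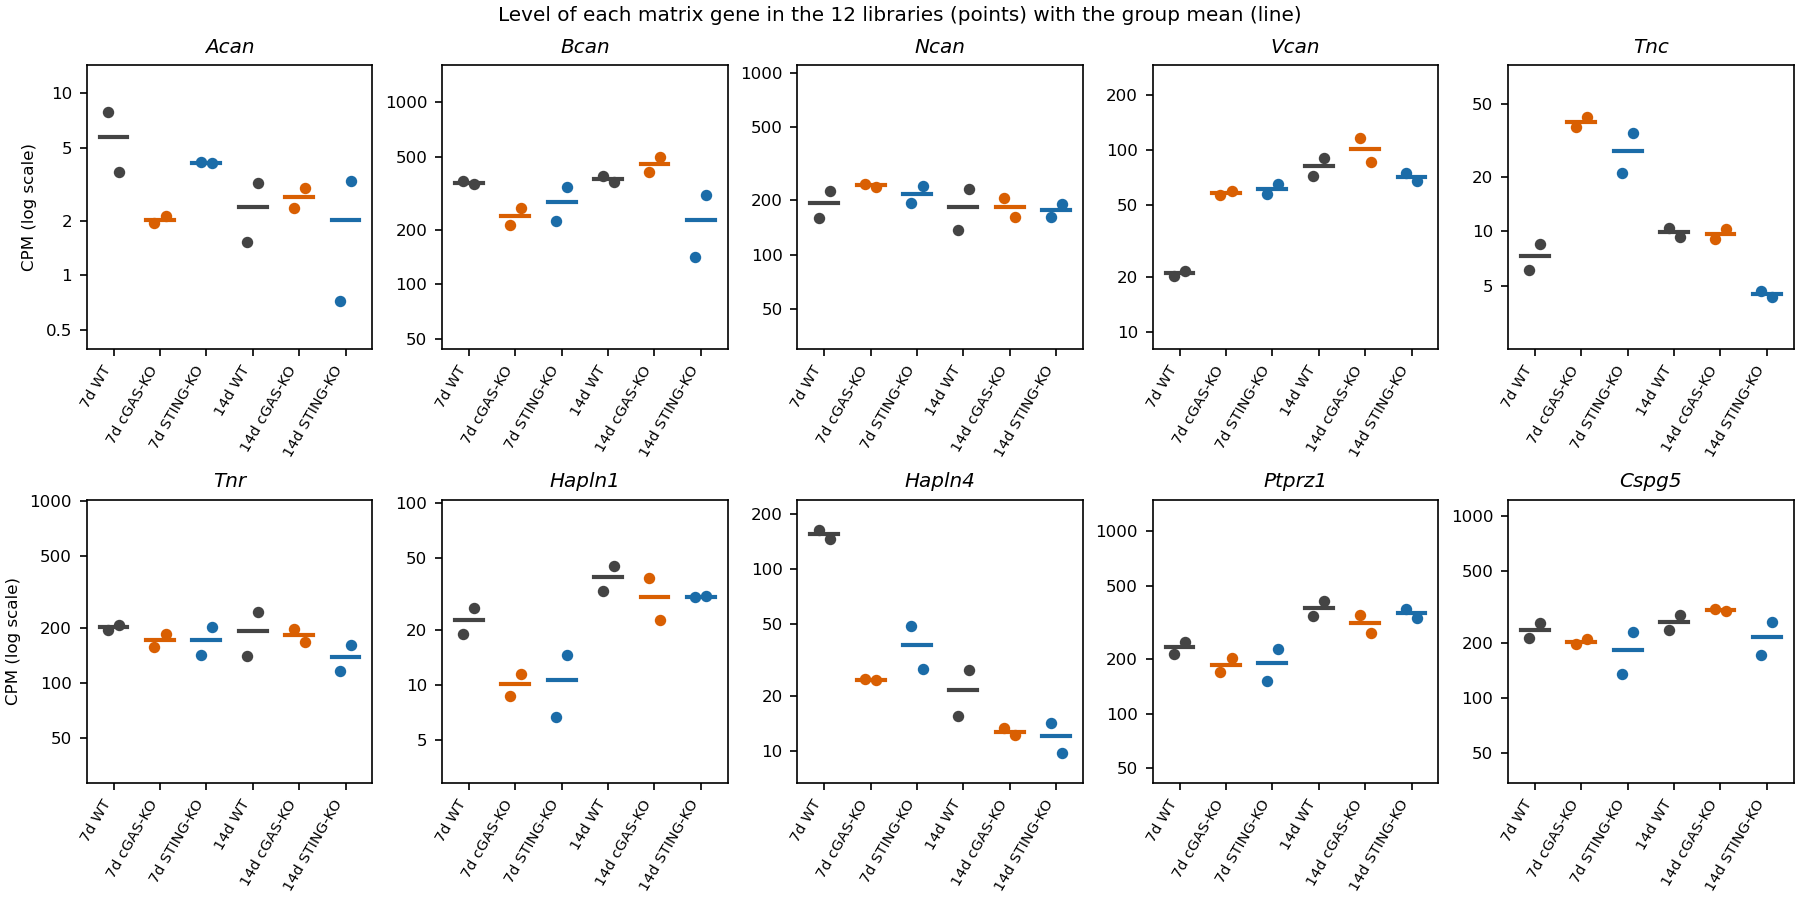
CPM of each of the 10 genes (log axis, with the same span in every panel) in the 12 libraries by group of day and genotype, with points for libraries and lines for group means of 2 libraries. Hapln4 is highest in 7-day WT (146 and 164 CPM), Tnc in the 7-day labelled knockouts (20.9 to 42.4 CPM), and Vcan is lowest in 7-day WT (20.4 and 21.6 CPM).

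At 7 days some matrix gene transcripts differed between WT and both labelled knockouts. Tnc and Vcan were higher and the link proteins Hapln1 and Hapln4 lower, where the Hapln1 calls depended on single libraries, as given below. The abundant brevican, neurocan, tenascin-R, Ptprz1 and Cspg5 did not pass the test. In cGAS-KO against WT, 2 of the 10 genes rose and 3 fell, the third being Acan, beside 27.8% of all 19822 genes called higher and 22.4% lower, 50.3% in all (edgeR's quasi-likelihood test, adjusted p below 0.05). In STING-KO against WT, 2 rose and 2 fell, beside 26.3% of all genes higher and 22.6% lower, 48.9% in all. The share of matrix genes called was thus near that of all genes in both comparisons. They share the WT libraries, so their likeness is no independent evidence. The libraries of cGAS-KO and WT did not overlap for all 10 genes, beside 80.2% of all genes, and those of STING-KO and WT for 5 of 10, beside 80.9% of all genes. The median log2 change of the 10 genes was -0.27 in cGAS-KO and -0.32 in STING-KO, and that of all genes was 0.04 and 0.03.

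At 14 days few of the 10 genes were called in the comparisons between genotypes. In cGAS-KO against WT, none of the 10 genes was called by edgeR or by DESeq2's Wald test, beside 0% of all genes higher and 0.0303% lower, 0.0303% in all, and 1 had an unadjusted p below 0.05. In STING-KO against WT, 1 fell and none rose, beside 16.5% of all genes higher and 17.4% lower, 33.9% in all. In cGAS-KO against STING-KO at 14 days, 3 were higher and none lower, beside 18.2% of all genes higher and 17.7% lower, 35.9% in all. The share of matrix genes called was thus not above that of all genes in either comparison with 14-day STING-KO. Each of the 3 calls of cGAS-KO against STING-KO was lost without at least 1 of the libraries compared. The same contrast at 7 days gave none by either tool, beside 0.0858% of all genes higher and 0.0757% lower, 0.161% in all, and 2 had an unadjusted p below 0.05.

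**Figure D2:**
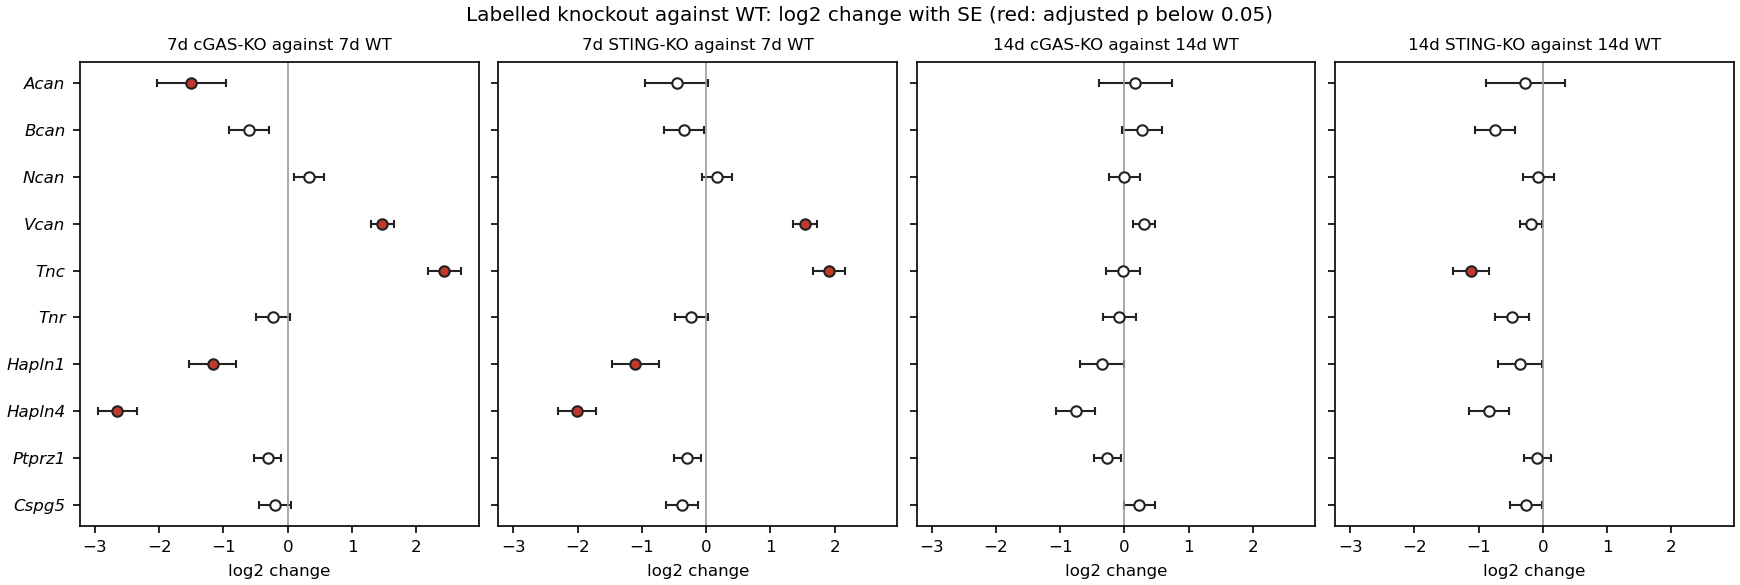
Log2 change of each gene in the libraries labelled as knockouts against WT of the same day (points) with its SE (bars) from the edgeR fit, filled red where the adjusted p was below 0.05. Tnc and Vcan lie to the right and Hapln1 and Hapln4 to the left at 7 days for both labels, and at 14 days the single red point is Tnc in STING-KO.

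Versican, the largest lectican, is made in the adult brain mainly by oligodendrocyte precursors, and outside it by fibroblasts and smooth muscle. Its level was 20.4 and 21.6 CPM in 7-day WT, 56.5 and 59.9 CPM in 7-day cGAS-KO and 57.1 and 65.2 CPM in 7-day STING-KO. At 14 days it was 72.5 and 90.2 CPM for WT, 116 and 85.5 CPM for cGAS-KO and 75.2 and 67.6 CPM in STING-KO. The 7-day WT libraries lay below all 10 others, which overlapped between several groups. Versican was higher than WT at 7 days by a log2 change of 1.47 ± 0.18 (SE) in cGAS-KO (edgeR adjusted p = 3.5e-05) and of 1.54 ± 0.18 in STING-KO (edgeR adjusted p = 2.61e-05).

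From 7 to 14 days versican rose 3.87-fold in WT (log2 change 1.95 ± 0.18, edgeR adjusted p = 1.13e-05) and 1.73-fold in cGAS-KO (0.79 ± 0.17, edgeR adjusted p = 0.00506). The cGAS-KO rise was lost without 14-day cGAS-KO replicate 1, at 0.53 with an edgeR adjusted p of 0.0706. In STING-KO the 2 times did not differ by the test (edgeR adjusted p = 0.284). At 14 days versican was higher in cGAS-KO than in STING-KO by 0.50 ± 0.17 (edgeR adjusted p = 0.039). That call was lost when any of 3 of the 4 libraries compared was left out: the change was 0.25 without cGAS-KO replicate 1, 0.57 without STING-KO replicate 1 and 0.44 without STING-KO replicate 2, with edgeR adjusted p of 0.332, 0.0769 and 0.128. It was also lost in a fit of these 4 libraries alone (edgeR adjusted p = 0.103).

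Brevican, a brain lectican made mostly by glia and placed in perineuronal nets and around synapses, was 368 and 354 CPM in 7-day WT, 213 and 264 CPM in 7-day cGAS-KO and 224 and 345 CPM in 7-day STING-KO. At 14 days it was 394 and 364 CPM for WT, 415 and 498 CPM for cGAS-KO, and 142 and 311 CPM in STING-KO, whose libraries differed 2.19-fold. Brevican was highest in 14-day cGAS-KO and lowest in 14-day STING-KO, with replicate 1 of the latter the lowest of all libraries. It was higher in cGAS-KO than in STING-KO at 14 days by 1.01 ± 0.31 (edgeR adjusted p = 0.0272). It was also higher at 14 than at 7 days in cGAS-KO, by 0.94 ± 0.31 (edgeR adjusted p = 0.0426).

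Both brevican calls were lost under several alternatives. Without a filter on low counts the contrast between the labelled knockouts was 1.02 (edgeR adjusted p = 0.1) and the change with time in cGAS-KO 0.93 (edgeR adjusted p = 0.146), and in a fit of the compared libraries alone the former was 1.01 (edgeR adjusted p = 0.0732). The contrast between the labelled knockouts was lost when 1 library of day 14 was left out, namely cGAS-KO replicate 1, cGAS-KO replicate 2 or STING-KO replicate 1, at 1.12, 0.87 and 0.54 with edgeR adjusted p of 0.0584, 0.133 and 0.14. The change with time in cGAS-KO was lost without any of its 4 libraries, at 0.79 to 1.13 with edgeR adjusted p of 0.0779 to 0.235. Against WT at 7 days, the cGAS-KO value was -0.60 ± 0.31 and missed the threshold (edgeR adjusted p = 0.134). A fit of the compared libraries alone called it lower (-0.61, edgeR adjusted p = 0.0125). Against WT at 14 days, the STING-KO value was -0.74 ± 0.31 and missed the threshold (edgeR adjusted p = 0.0908). Without 14-day STING-KO replicate 2, which leaves the lowest library to stand for its group, it was -1.43 (edgeR adjusted p = 0.00178).

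Neurocan, a lectican of the central nervous system that astrocytes raise after injury, passed the test in none of the 11 comparisons. It was 160 and 222 CPM in 7-day WT, 245 and 236 CPM in 7-day cGAS-KO, 192 and 237 CPM in 7-day STING-KO, 136 and 230 CPM in 14-day WT, 205 and 161 CPM in 14-day cGAS-KO and 161 and 189 CPM in 14-day STING-KO. Its libraries overlapped between every pair of neighbouring groups in the order of means.

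Aggrecan was sparse, with 12 to 140 counts per library. It was 7.85 and 3.68 CPM in 7-day WT, 1.93 and 2.11 CPM in 7-day cGAS-KO, 4.19 and 4.13 CPM in 7-day STING-KO, 1.52 and 3.24 CPM in 14-day WT, 2.36 and 3.03 CPM in 14-day cGAS-KO, and 0.720 and 3.32 CPM in 14-day STING-KO. The 2 libraries of a group differed by up to 4.61-fold, and replicate 1 of 7-day WT was the highest of all. Aggrecan was lower in cGAS-KO than in WT at 7 days by 1.50 on the log2 scale (-1.50 ± 0.54, edgeR adjusted p = 0.0366). The call was lost without 7-day WT replicate 1, at -0.88 (edgeR adjusted p = 0.304), without cGAS-KO replicate 1 or 2, at -1.48 and -1.64 (edgeR adjusted p = 0.132 and 0.103), and in the legacy form of edgeR's fit with or without robust estimation (edgeR adjusted p = 0.056 and 0.0551).

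Tenascin-C, a glycoprotein that is low in the adult brain and returns in injured tissue, was the gene with the largest rise at 7 days. Its level was 6.17 and 8.54 CPM in 7-day WT, 37.5 and 42.4 CPM in 7-day cGAS-KO and 20.9 and 34.5 CPM in 7-day STING-KO. At 14 days it was 10.5 and 9.27 CPM for WT, 9.12 and 10.3 CPM for cGAS-KO and 4.68 and 4.36 CPM in STING-KO. The 4 labelled knockout libraries of day 7 lay above all others, and the 14-day STING-KO libraries below all others. Tnc was higher than WT at 7 days by a log2 change of 2.44 ± 0.25 in cGAS-KO (5.42-fold, edgeR adjusted p = 1.08e-05) and of 1.91 ± 0.25 in STING-KO (3.76-fold, edgeR adjusted p = 7.33e-05).

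From 7 to 14 days Tnc fell 4.12-fold in cGAS-KO (log2 change -2.04 ± 0.25, edgeR adjusted p = 0.000162) and 6.12-fold in STING-KO (-2.61 ± 0.27, edgeR adjusted p = 1e-05), comparisons that use no WT library. Only the cGAS-KO fall also avoids the 14-day STING-KO libraries, which stood apart in the striatal markers. Tissue markers differed within cGAS-KO too. From 7 to 14 days fibroblast markers went from 2947 to 4626 CPM to 106 to 125 CPM. Choroid plexus markers went from 2525 to 4527 CPM to 90.9 to 291.5 CPM, and striatal markers from 129 to 405 CPM to 1579 to 2625 CPM. Their part in the fall of Tnc was not tested. In WT, Tnc was not called between the times. At 14 days Tnc was lower in STING-KO than in WT (-1.12 ± 0.28, edgeR adjusted p = 0.00958) and higher in cGAS-KO than in STING-KO (1.10 ± 0.28, edgeR adjusted p = 0.00971). The first of these was lost without 14-day WT replicate 1 (-1.05, edgeR adjusted p = 0.0551) and the second without 14-day cGAS-KO replicate 2 (1.02, edgeR adjusted p = 0.0524). Tnc shares 176 exon bases with the antisense gene 8030451A03Rik, and the strand setting of the counting is not given in the sources used here.

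Tenascin-R, made mainly by oligodendrocytes and some interneurons and a cross-linker of perineuronal nets, was called in none of the 11 comparisons. It was 195 and 209 CPM in 7-day WT, 157 and 187 CPM in 7-day cGAS-KO, 142 and 202 CPM in 7-day STING-KO, 141 and 246 CPM in 14-day WT, 199 and 167 CPM in 14-day cGAS-KO and 117 and 162 CPM in 14-day STING-KO. The lowest and the highest libraries both came from 14 days, and every pair of neighbouring groups overlapped. Tnr shares 443 exon bases with the antisense gene Gm38039. The ratio of Tnc to Tnr CPM was 0.0317 to 0.0408 in 7-day WT, 0.227 to 0.239 in 7-day cGAS-KO and 0.147 to 0.171 in 7-day STING-KO, and 0.027 to 0.0739 over the 14-day libraries.

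Hapln4, a brain link protein of perineuronal nets and of the matrix around inhibitory synapses, had the widest range. Its level was 164 and 146 CPM in 7-day WT, 24.8 and 24.5 CPM in 7-day cGAS-KO and 48.6 and 28.3 CPM in 7-day STING-KO. At 14 days it was 15.7 and 27.8 CPM for WT, 13.3 and 12.3 CPM for cGAS-KO and 14.3 and 9.83 CPM in STING-KO. Both 7-day WT libraries lay above all 10 others, the nearest of which was at 48.6 CPM. Hapln4 was lower than WT at 7 days in cGAS-KO (-2.65 ± 0.30, 6.29-fold, edgeR adjusted p = 2.41e-05) and in STING-KO (-2.01 ± 0.29, 4.03-fold, edgeR adjusted p = 0.000155).

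With time, Hapln4 fell in every genotype: 7.13-fold in WT (-2.83 ± 0.30, edgeR adjusted p = 3.41e-05), 1.92-fold in cGAS-KO (-0.94 ± 0.30, edgeR adjusted p = 0.0346) and 3.17-fold in STING-KO (-1.67 ± 0.30, edgeR adjusted p = 0.000696). The fall in cGAS-KO was lost when any of its 4 libraries was left out, at -1.02 to -0.90 with edgeR adjusted p of 0.106 to 0.129, and without a filter on low counts (-0.95, edgeR adjusted p = 0.051). At 14 days the values against WT were -0.76 ± 0.30 in cGAS-KO (edgeR adjusted p = 0.393) and -0.84 ± 0.31 in STING-KO (edgeR adjusted p = 0.0531), and neither passed the test. DESeq2's Wald test called the latter (-0.83, adjusted p = 0.0306), as did edgeR without 14-day WT replicate 1 (-1.21, edgeR adjusted p = 0.0164).

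Hapln1, the link protein that holds lecticans on hyaluronan in cartilage and in cortical nets, moved the other way with time. It was 19.0 and 26.6 CPM in 7-day WT, 8.75 and 11.5 CPM in 7-day cGAS-KO and 6.71 and 14.6 CPM in 7-day STING-KO. At 14 days it was 32.9 and 45.2 CPM for WT, 38.6 and 22.7 CPM for cGAS-KO and 30.3 and 30.8 CPM in STING-KO. The 4 labelled knockout libraries of day 7 were the lowest of the 12. Hapln1 was lower than WT at 7 days in cGAS-KO (-1.17 ± 0.36, edgeR adjusted p = 0.0189) and in STING-KO (-1.10 ± 0.36, edgeR adjusted p = 0.0255).

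Those 7-day calls were lost without 7-day WT replicate 2 (-0.90 and -0.83, edgeR adjusted p = 0.135 and 0.17). The first was also lost without cGAS-KO replicate 1 (-1.03, edgeR adjusted p = 0.111), and the second without STING-KO replicate 1 (-0.69, edgeR adjusted p = 0.146) and in a fit of the compared libraries alone (edgeR adjusted p = 0.0503). From 7 to 14 days Hapln1 rose 3.02-fold in cGAS-KO (1.59 ± 0.36, edgeR adjusted p = 0.00714) and 2.86-fold in STING-KO (1.52 ± 0.36, edgeR adjusted p = 0.00398). The cGAS-KO rise was lost without 7-day or 14-day cGAS-KO replicate 1 (1.41 and 1.13, edgeR adjusted p = 0.0717 and 0.0756). In WT the value was 0.77 ± 0.34 (edgeR adjusted p = 0.0879). The ratio of Hapln1 to Hapln4 CPM was 0.116 to 0.514 over the 7-day libraries and 1.63 to 3.13 over the 14-day libraries, so the range at 14 days lay above that at 7 days.

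Ptprz1, a receptor-type phosphatase whose secreted splice form phosphacan is a major soluble proteoglycan of brain, was higher at 14 days in every genotype. It was 213 and 248 CPM in 7-day WT, 170 and 201 CPM in 7-day cGAS-KO and 150 and 227 CPM in 7-day STING-KO, and 342 and 414, 348 and 277, and 376 and 334 CPM in the same groups at 14 days. All 6 libraries of day 14 lay above all 6 of day 7. The rise was 0.71 ± 0.21 in WT (edgeR adjusted p = 0.0163), 0.75 ± 0.21 in cGAS-KO (edgeR adjusted p = 0.0188) and 0.91 ± 0.21 in STING-KO (edgeR adjusted p = 0.00297). It was lost in WT without 7-day WT replicate 1 or 14-day WT replicate 2 (0.58 and 0.53, edgeR adjusted p = 0.138 and 0.126), and in cGAS-KO without replicate 1 of either day (0.63 and 0.56, edgeR adjusted p = 0.145 and 0.162). Gene counts do not separate the receptor from phosphacan.

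Cspg5, a transmembrane proteoglycan of neurons and astrocytes also named neuroglycan C, was called in none of the 11 comparisons. It was 213 and 256 CPM in 7-day WT, 197 and 211 CPM in 7-day cGAS-KO, 136 and 229 CPM in 7-day STING-KO, 237 and 283 CPM in 14-day WT, 308 and 299 CPM in 14-day cGAS-KO, and 172 and 262 CPM in 14-day STING-KO. Both 14-day cGAS-KO libraries lay above all others. Their difference from 7-day cGAS-KO was 0.58 ± 0.25 (edgeR adjusted p = 0.097).

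**Figure D3:**
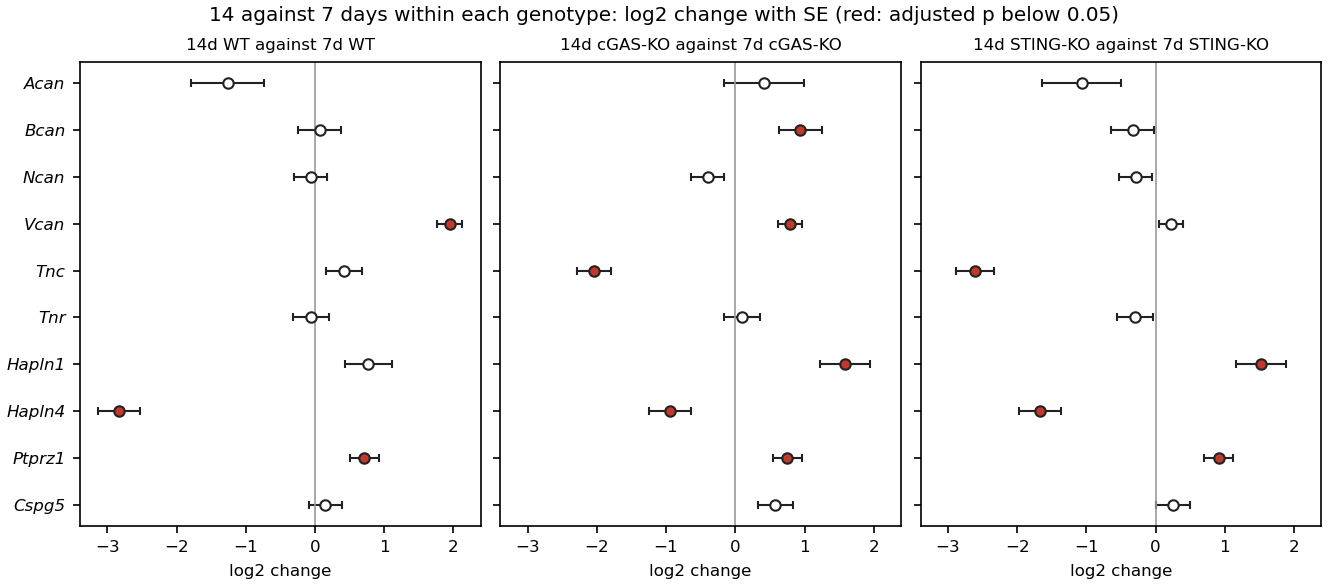
Log2 change from 7 to 14 days of each gene within WT, cGAS-KO and STING-KO (points) with its SE (bars) from the edgeR fit, filled red where the adjusted p was below 0.05. Ptprz1 is higher and Hapln4 lower in all 3 genotypes, Tnc is lower in both labelled knockouts, and Hapln1 is higher in both.

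Counted over the 10 genes, the change with time held 2 higher and 1 lower in WT, beside 24.1% of all genes higher and 19.7% lower, 43.9% in all. In cGAS-KO 4 were higher and 2 lower, beside 13.4% and 17% of all genes, 30.4% in all, and in STING-KO 2 were higher and 2 lower, beside 27.4% and 29.5%, 56.9% in all. The call counts were above the share of all genes in cGAS-KO and below it in WT and STING-KO, and without 14-day cGAS-KO replicate 1 the cGAS-KO count was 1. The difference of the labelled knockout effect between the times was itself tested. For cGAS-KO, 1 gene was called higher and 2 lower (beside 15.7% and 21% of all genes, 36.7% in all), and for STING-KO likewise 1 higher and 2 lower (beside 24.3% and 27.6%, 51.9% in all). These were Hapln4, whose deficit against WT was smaller at 14 days, and Vcan and Tnc, whose excess at 7 days was not called at 14 days. In STING-KO Tnc was instead called lower than WT at 14 days, as given above. The difference was -1.16 ± 0.24 and -1.73 ± 0.25 for Vcan, -2.46 ± 0.36 and -3.03 ± 0.38 for Tnc, and 1.89 ± 0.41 and 1.17 ± 0.41 for Hapln4, in cGAS-KO and STING-KO, with edgeR adjusted p of 3.73e-05 to 0.0343.

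The make-up of the matrix transcripts was described as each gene's share of the summed CPM per kb of the 10. Brevican held 28.1% to 55.3% over the 12 libraries, neurocan 9.94% to 23.2%, Cspg5 9.80% to 14.6% and Ptprz1 7.04% to 21.2%. Hapln4 held 1.41% to 19.7%, with its highest shares in the 7-day WT libraries. Versican held 0.665% to 4.17% and tenascin-C 0.315% to 3.30%. Among the 4 lecticans, brevican held 55.9% to 81.0%, neurocan 14.8% to 37.6%, versican 1.23% to 8.30% and aggrecan 0.154% to 0.913%. The ratio of Vcan to Bcan CPM was 0.0555 to 0.0611 in 7-day WT and 0.172 to 0.529 over all other libraries. The summed CPM of the 10 genes was 1366 to 1497 in 7-day WT, 981 to 1386 in the 7-day labelled knockouts and 1093 to 1713 over the 14-day libraries.

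**Figure D4:**
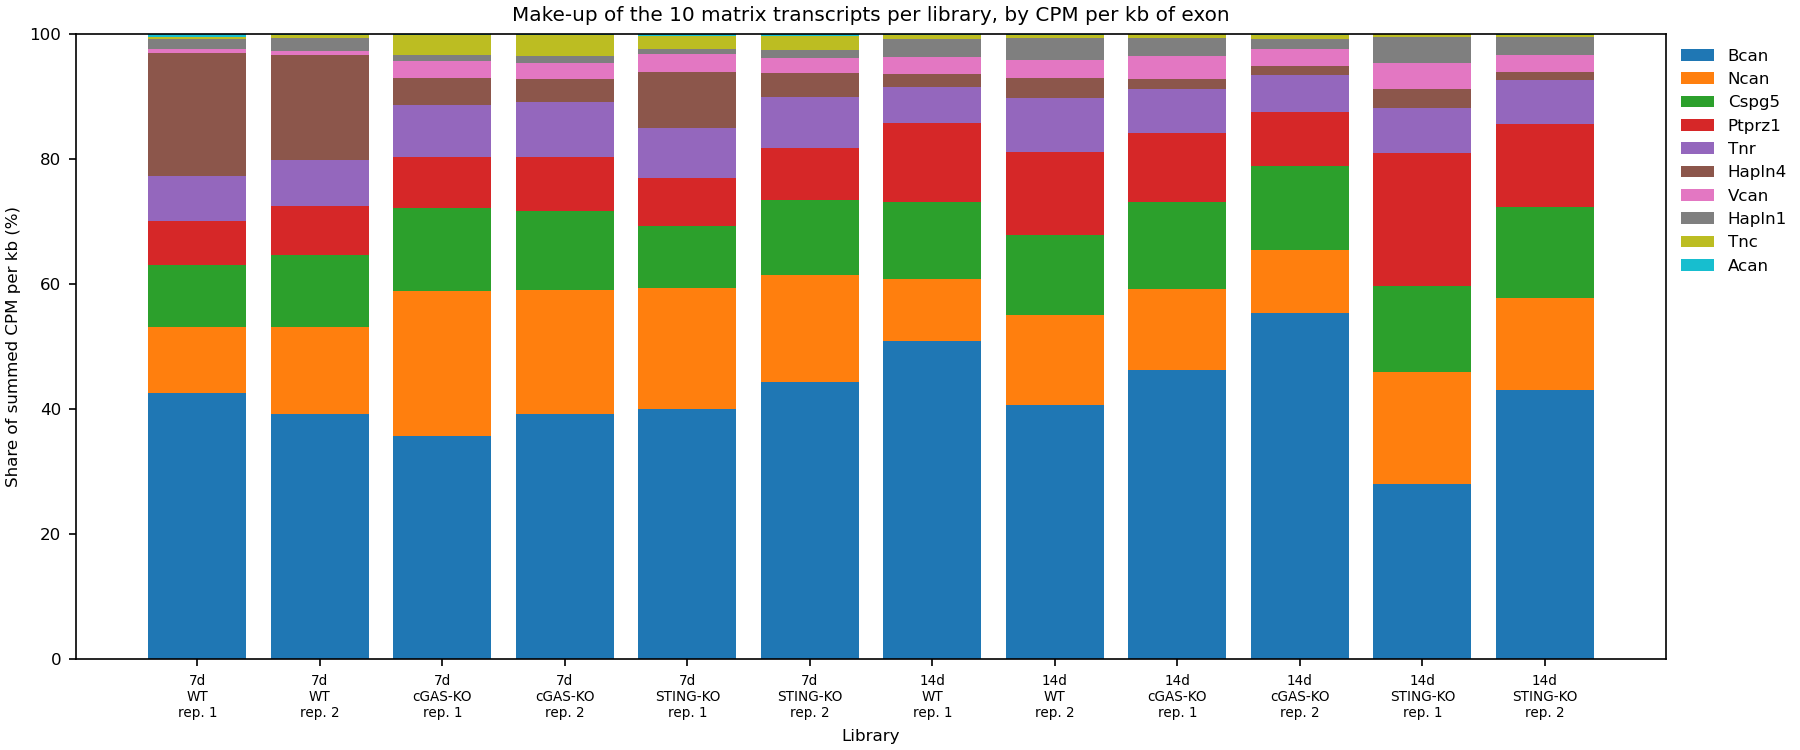
Share (%) of each gene in the summed CPM per kb of exon of the 10 matrix genes, 1 stacked bar per library. The Hapln4 segment reaches 19.7% in 7-day WT and falls to 1.41% at its lowest, while brevican is the largest segment in all 12 bars.

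Markers of the cells that make or carry this matrix also differed between groups, not always alongside these genes. Their part in the results was not tested. In bulk tissue, fewer cells of a type and less RNA per cell cannot be told apart. None of the markers of the lists named in this paragraph was at 0 in every library of a group. Hapln4 and Acan were highest in 7-day WT, where 6 neuronal markers summed to 4897 to 5295 CPM, against 955 to 1487 CPM in the 7-day labelled knockouts, and where 6 markers of net-bearing parvalbumin interneurons summed to 847 to 908 CPM, against 185 to 283 CPM. All 6 neuronal markers were called lower in both 7-day comparisons, and 4 and 5 of the 6 parvalbumin interneuron markers, beside 22.4% and 22.6% of all genes. Sox6, on the same interneuron list, was called higher in both. Its means were 15.7 CPM for 7-day WT, 30.0 CPM for cGAS-KO and 29.0 CPM for STING-KO, and which cells carried it was not tested. At 14 days the 6 neuronal markers summed to 1539 to 2386 CPM in WT and cGAS-KO and 3233 to 3790 CPM in STING-KO. In 14-day STING-KO, where Hapln4 was at its lowest, the interneuron list summed to 860 to 876 CPM. Most of it was Gad1, which projection neurons also express and which averaged 698 CPM there and 344 CPM in 7-day WT. Pvalb itself averaged 43.7 CPM in 7-day WT and 2.81 CPM in 14-day STING-KO.

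Vcan and Tnc were higher at 7 days in groups where fibroblast, precursor and choroid plexus markers were also higher. These lists were not alone. In cGAS-KO and STING-KO, 4 and 5 of 6 mature oligodendrocyte markers were called higher than in WT. So were all 7 microglia and macrophage markers in both, and 4 and 3 of 4 endothelial markers. The counts of this paragraph stand beside 27.8% and 26.3% of all genes called higher, and 22.4% and 22.6% lower. The 6 fibroblast markers summed to 68.8 to 82.1 CPM in 7-day WT, 2947 to 4626 CPM in 7-day cGAS-KO, 1663 to 2052 CPM in 7-day STING-KO and 50.3 to 342 CPM over the 14-day libraries, and all 6 rose in both 7-day comparisons. The 6 oligodendrocyte precursor markers summed to 341 to 378 CPM in 7-day WT, 709 to 982 CPM in the 7-day labelled knockouts, 629 to 899 CPM in 14-day WT and cGAS-KO and 270 to 440 CPM in 14-day STING-KO, with 5 of 6 higher in both 7-day comparisons. The 5 choroid plexus markers summed to 75.5 to 133 CPM in 7-day WT, 2525 to 4527 CPM in the 7-day labelled knockouts and 53.6 to 696 CPM at 14 days. At 14 days Vcan was higher than in 7-day WT with fibroblast markers at 50.3 to 342 CPM. The 8 astrocyte markers summed to 4313 to 4441 CPM in 7-day WT, 5611 to 9485 CPM in the 7-day labelled knockouts, 8607 to 11604 CPM in 14-day WT and cGAS-KO and 6318 to 6743 CPM in 14-day STING-KO. They did not move alike: 4 of the 8 were called higher and 2 lower in 7-day cGAS-KO, and 5 higher and 1 lower in 7-day STING-KO. Gfap averaged 429 CPM in 7-day WT, 2832 CPM in cGAS-KO and 4005 CPM in STING-KO, and Slc1a2 averaged 2095, 1240 and 1257 CPM. Whether these markers account for any of the changes was not tested.

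By position, each lectican gene lies beside a link protein gene with no protein-coding gene between them in GENCODE M21: Vcan and Hapln1 on chromosome 13 (43659 bases apart), Ncan and Hapln4 on chromosome 8 (2222 bases), Bcan and Hapln2 on chromosome 3 (21519 bases) and Acan and Hapln3 on chromosome 7 (2 bases). At 7 days Vcan was called higher and Hapln1 lower in both labelled knockouts, and Hapln4 was called lower while Ncan was not called. Hapln2, a link protein of the nodes of Ranvier, averaged 56.8 CPM in 7-day WT, 67.8 CPM in 7-day cGAS-KO and 123 CPM in 7-day STING-KO, where Bcan was not called. At 14 days Hapln2 was highest in cGAS-KO (170 CPM) and lowest in STING-KO (42.2 CPM), as Bcan was, and higher in the former by 2.01 ± 0.27 (edgeR adjusted p = 0.000368). Hapln3 had group means of 1.41 to 2.28 CPM and was called in none of the 11 comparisons.

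As a description of likeness, the log2 CPM of each gene was centred on its mean over the 12 libraries and set against 14699 genes by the root-mean-square difference. The nearest to Vcan was Slc12a2 (0.17), a chloride cotransporter, and to Tnc were Blvrb (0.28), a biliverdin reductase, and Myh9 (0.30), a non-muscle myosin heavy chain. The nearest to Hapln4 were Sez6l (0.31) and Ptpn3 (0.35), and to Hapln1 were Fam228a (0.30) and the astrocyte glutamate transporter Slc1a2 (0.31). Ptprz1 was nearest to Pde7a and Bmi1 (both 0.15), Bcan to Ppfia4 (0.22) and Aplp1 (0.23), and Acan to Iglon5 (0.37) and Adnp (0.39). Tnr was nearest to Mgll (0.15), Ncan to Wdpcp (0.17) and Cspg5 to Cyhr1 (0.19). Flat genes have small differences from many others: the median difference to all genes compared was 0.56 for Ncan and Tnr and 1.37 for Hapln4. Among the 10 genes themselves, Ncan and Tnr were closest (0.26) and Vcan and Hapln4 farthest apart (1.94). Over these 12 libraries, which share their groups, Pearson's r of log2 CPM was 0.96 for Hapln1 with Ptprz1 and -0.90 for Vcan with Hapln4.

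The rest of the pathway was read from 6 lists, which were chosen with earlier results of these data known. Genes named from a list are among those with its smallest adjusted p, so the counts and names are a description. At 7 days the counts stand beside 27.8% of all genes called higher and 22.4% lower in cGAS-KO against WT. In STING-KO against WT these were 26.3% and 22.6%. For STING-KO against WT at 14 days these shares were 16.5% and 17.4%, and for STING-KO at 14 against 7 days 27.4% and 29.5%. Of 12 genes for lectican cleavage and chondroitin sulphate breakdown, 9 rose and 1 fell in cGAS-KO against WT at 7 days, and 8 rose and 1 fell in STING-KO, with median log2 changes of 2.01 and 1.44 against 0.04 and 0.03 for all genes. The lysosomal enzymes led: Hexa, a hexosaminidase subunit, averaged 46.1 CPM in 7-day WT, 608 CPM in cGAS-KO and 650 CPM in STING-KO, and the beta-glucuronidase Gusb averaged 15.1, 387 and 560 CPM in the same groups. Adamts1, a protease that cuts lecticans, averaged 21.8, 82.1 and 61.6 CPM. At 14 days 7 of the 12 fell and none rose in STING-KO against WT, among them Gusb (129 and 31.1 CPM) and Galns (18.9 and 4.52 CPM), a sulphatase of the same pathway. From 7 to 14 days in STING-KO 10 fell and 1 rose. Lysosomal enzymes are abundant in phagocytes, and the 7 microglia and macrophage markers summed to 193 to 197 CPM in 7-day WT, 2086 to 2858 CPM in the 7-day labelled knockouts and 327 to 605 CPM in 14-day STING-KO. Their part in these changes was not tested.

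Of 11 hyaluronan genes, 8 rose and 1 fell in cGAS-KO and 7 rose and 1 fell in STING-KO against WT at 7 days, with medians of 1.53 and 1.27. The hyaluronan receptor Cd44 averaged 2.83 CPM in 7-day WT, 77.7 CPM in cGAS-KO and 104 CPM in STING-KO. At 14 days its mean was 65.1 CPM for WT and 12.2 CPM for STING-KO (-2.42 ± 0.34, edgeR adjusted p = 0.000443), a comparison in which 2 of the 11 rose and 3 fell. The hyaluronan-degrading protein Cemip averaged 61.5 CPM in 7-day STING-KO and 4.53 CPM in 14-day STING-KO.

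Of 10 other chondroitin sulphate proteoglycans and link proteins, 5 rose and 3 fell in each 7-day comparison, and 2 rose and 5 fell in STING-KO against WT at 14 days. The small proteoglycan biglycan (Bgn) averaged 11.0 CPM in 7-day WT, 448 CPM in cGAS-KO and 252 CPM in STING-KO, and Cspg4, the NG2 proteoglycan of precursors and pericytes and itself among the precursor markers, 28.2, 70.1 and 156 CPM. Serglycin (Srgn), the granule proteoglycan of blood cells, averaged 4.42, 47.1 and 74.4 CPM. Testican-3 (Spock3) went the other way, with means of 104 CPM for 7-day WT and 23.4 CPM for 7-day cGAS-KO, and it averaged 101 CPM in 14-day WT and 564 CPM in 14-day STING-KO.

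Of 14 chain synthesis genes, 4 rose and 5 fell in cGAS-KO and 3 rose and 5 fell in STING-KO against WT at 7 days, with medians of -0.05 and -0.01. In all 9 and 8 of the 14 were called, shares near the 50.3% and 48.9% of all genes. The chain polymerase Chsy1 averaged 11.3 CPM in 7-day WT, 30.6 CPM in cGAS-KO and 29.6 CPM in STING-KO. Of 12 tested sulphation and epimerisation genes (13 listed), 6 rose and 1 fell, and 6 rose and 2 fell. Chst14, the dermatan 4-O-sulphotransferase, averaged 2.22, 18.7 and 16.4 CPM in those groups, and Chst3, a chondroitin 6-O-sulphotransferase, 2.55, 13.2 and 18.0 CPM. Chst15, which adds a further sulphate to 4-sulphated chains, averaged 34.5 CPM in 14-day WT and 121 CPM in 14-day STING-KO (1.81 ± 0.25, edgeR adjusted p = 0.000299).

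Of 16 binding partners and receptors, 5 rose and 9 fell in cGAS-KO and 4 rose and 8 fell in STING-KO against WT at 7 days, with medians of -0.63 and -0.57. Itgb1, an integrin subunit that binds tenascin-C, averaged 51.0 CPM in 7-day WT, 340 CPM in cGAS-KO and 325 CPM in STING-KO, and the tenascin-R ligand contactin-1 (Cntn1) averaged 377, 104 and 151 CPM. The Nogo receptor Rtn4r, which also binds chondroitin sulphate, averaged 81.1 CPM in 7-day WT and 18.1 CPM in 7-day STING-KO, and 14.9 CPM in 14-day WT and 3.20 CPM in 14-day STING-KO. In cGAS-KO against WT at 14 days no gene of any of the 6 lists was called by edgeR, beside 0.0303% of all genes. With so few genes called, this says little about the lists.

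**Figure D5:**
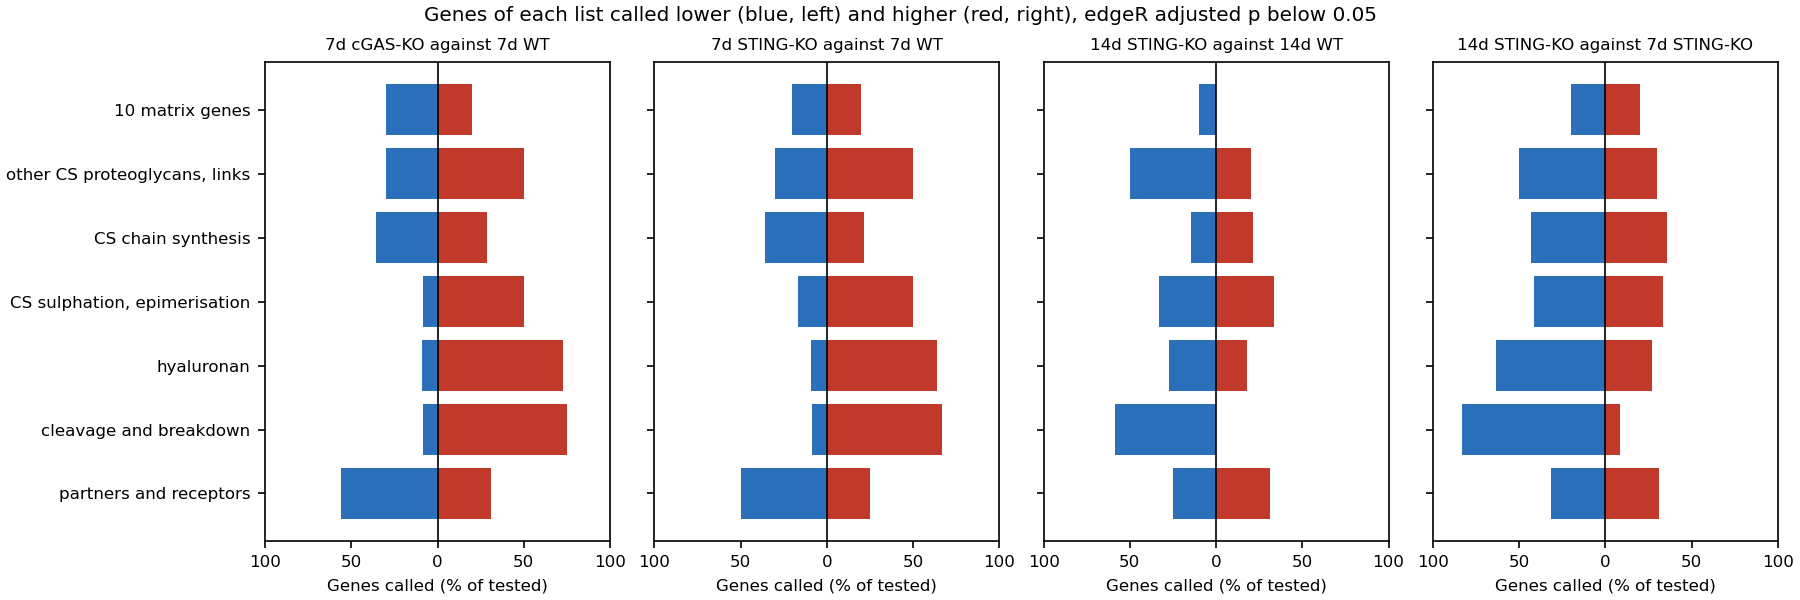
Share (%) of the tested genes of each list called higher (red, to the right) and lower (blue, to the left) at an edgeR adjusted p below 0.05, for the 10 matrix genes and 6 lists of related genes in 4 comparisons. The cleavage and breakdown list extends to the right in both 7-day comparisons (9 and 8 of 12 higher) and to the left in both 14-day STING-KO comparisons (7 and 10 of 12 lower). The lists were chosen with earlier results of these data known.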

How the data were processed

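Poly-A-selected libraries were sequenced in paired reads on an Illumina instrument, per the labels' protocols. Each deposited file holds the authors' raw counts by Ensembl ID; HISAT2, featureCounts and mm10 are named in the submitters' processing notes, while versions, annotation release and strand setting are not given in the sources used here. Symbols and exons came from GENCODE M21, with a symbol for 54495 of 54532 IDs. edgeR 4.0.16 (R 4.3.3) tested the counts: filterByExpr (minimum count 10, total 15) kept 19822 genes, TMM factors were used, and 12 libraries entered 1 fit of 6 groups (6 residual degrees of freedom; biological coefficient of variation 0.194) with robust quasi-likelihood. P-values were Benjamini-Hochberg adjusted over all genes of each of 11 contrasts, with a threshold of 0.05. The SE of a log2 change is its size divided by the root of its F value. CPM per kb used the union of exons. The fit was tested on simulated data.

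The text names the 10 genes, the nearest genes by likeness (mean log2 CPM of at least 1, prior count 2), up to 4 genes per list with the smallest adjusted p in a contrast, the targeted genes and cell type markers; Hapln3 was named for its position after values were seen. Members and lists were chosen with earlier results of these data known. Alternatives were DESeq2 size factors, DESeq2 1.42.0, testing without a filter or with a stricter minimum (at least 1 CPM and 10 counts in each of 2 libraries), fitting the compared libraries alone, fitting all groups other than 7-day WT and 14-day STING-KO, the replicate block, both legacy fits and leaving out each library. The gene length of the longest coding transcript was added after the data had been seen. Figures were drawn with matplotlib 3.10.9.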

Additional observations from a re-analysis of the deposited data

Results flagged for a closer look

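The effect of the labelled knockout against WT differed between 7 and 14 days for 3 of the 10 genes, by edgeR's test of the difference itself. For Tnc the effect at 14 days minus that at 7 days was -2.46 ± 0.36 (SE, log2) in cGAS-KO (edgeR adjusted p = 0.000251) and -3.03 ± 0.38 in STING-KO (edgeR adjusted p = 3.73e-05). For Vcan it was -1.16 ± 0.24 in cGAS-KO (edgeR adjusted p = 0.00301) and -1.73 ± 0.25 in STING-KO (edgeR adjusted p = 0.000106). For Hapln4 it was 1.89 ± 0.41 in cGAS-KO (edgeR adjusted p = 0.00407) and 1.17 ± 0.41 in STING-KO (edgeR adjusted p = 0.0343). All 6 values use the 7-day WT libraries, which stood apart in their neuronal markers, and the values of both labels share all 4 WT libraries. The Hapln4 value in STING-KO lost its call without 7-day WT replicate 1 (1.10, edgeR adjusted p = 0.0866), 7-day WT replicate 2 (1.24, 0.0589), 7-day STING-KO replicate 2 (0.86, 0.0983), 14-day WT replicate 1 (0.82, 0.112) or 14-day STING-KO replicate 1 (0.89, 0.155). It was also lost without a filter on low counts (1.19, 0.0505) and in a fit of the compared libraries alone (1.19, 0.0565).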

How the results depend on the processing

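Of 110 results of a single gene, 32 were called, and 18 of these stayed called in every alternative run; 14 were lost in at least 1, of which 7 only when a library was left out, and 15 uncalled results were called in at least 1. No called result reversed; 71 of 1430 alternative values changed sign with neither value called. Outside of leaving out libraries, the number of genes called moved by over 1.5 times in 2 comparisons: STING-KO against WT at 14 days went from 1 to 2 with DESeq2's Wald test and with the replicate block, and cGAS-KO against STING-KO at 14 days from 3 to 1 with only the libraries compared. With 1 library left out, the count ran from 3 to 4 of the 5 for cGAS-KO against WT at 7 days and from 1 to 2 for STING-KO against WT at 14 days. It ran from 1 to 3 for cGAS-KO against STING-KO at 14 days and from 1 to 4 of the 6 for cGAS-KO at 14 against 7 days. A lone library was then taken to vary like the other groups. The shared replicate numbers do not pair the libraries: deviations of same-numbered libraries correlated at -0.09 to 0.20 (median 0.01), with 2 of 15 pairs of groups over 0.1. With the replicate block, Bcan in STING-KO against WT at 14 days was -0.81 (edgeR adjusted p = 0.033) and Cspg5 in cGAS-KO at 14 against 7 days 0.58 (edgeR adjusted p = 0.038), both not called without it. The block left the counts of the other 9 comparisons at the same number. The fit without 2 groups could not be run where a contrast uses them. The median of all genes lay within 0.07 of 0 in every comparison. Depth limits Acan, with 12 to 140 counts per library.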
